A study of Mus musculus with 12 samples.

Results

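The genes described here are 10 core members of the antioxidant programme driven by NRF2: Nfe2l2, which encodes NRF2 itself, and Nqo1, Gclc, Gclm, Hmox1, Srxn1, Txnrd1, Slc7a11, G6pdx and Osgin1. They were chosen by name, as established targets of the factor. All 10 were found among the 57180 genes of the count table, and all 10 were among the 19350 genes with enough reads to be tested. Slc7a11 passed that filter only through the KO livers, since no Het liver reached 5 reads after scaling to the median library.

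RNA sequencing covered the livers of 12 mice in 4 groups of 3, after removal of ribosomal RNA. They were the Het females Het_F_111, Het_F_115 and Het_F_126, the Het males Het_M_119, Het_M_125 and Het_M_137, the KO females KO_F_108, KO_F_112 and KO_F_123 and the KO males KO_M_118, KO_M_122 and KO_M_136, and values are listed in that order. By the labels every mouse was Csa-/-; Csa, also named Ercc8, is a gene of transcription-coupled DNA repair that is mutated in Cockayne syndrome. Every mouse also received, as a newborn, AAV9-CSA by injection into the ventricles of the brain. AAV9-CSA is a viral vector that carries human ERCC8 under the chicken β-actin promoter, described as ubiquitous. Het mice were littermates of matched age with the genotype Csa-/- Xpa+/-. KO mice were the CX mice of the study, taken at the humane endpoint. The sources conflict on their Xpa alleles, which the RNA-seq methods write as Csa-/- Xpa+/+ and the description of CX mice gives as Csa-/- Xpa-/-. Reads on Xpa were at 4.71 ± 1.41 CPM (SD, n = 6, with CPM the counts scaled to a common library total) in Het livers and 1.24 ± 0.298 CPM (n = 6) in KO livers, a log2 fold change of -1.83 (SE 0.163, adjusted p = 4.14e-05, edgeR with Benjamini-Hochberg adjustment). Every KO liver, at 0.992 to 1.83 CPM, lay below every Het liver, at 3.10 to 6.34 CPM. That is the order of Xpa-/- below Xpa+/-, as in the description of CX mice, and not of Xpa+/+ above it. The alleles themselves were not read here. Reads on Ercc8 were present in every liver, at 7.16 ± 1.40 CPM in Het and 22.9 ± 8.81 CPM in KO livers (SD, n = 6 each), a log2 fold change of 1.62 (SE 0.174, adjusted p = 1.56e-04, edgeR with Benjamini-Hochberg adjustment), and whether they came from the disrupted gene or the vector was not tested. The age of each mouse and the strain background were not given in the sources used here. Genotype and terminal illness came together in the KO mice, so their parts in any difference cannot be told apart.

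Estimated counts summed to between 30044812 and 43634073 per liver, and the share from mitochondrial genes ran from 4.62% to 6.71%. Hepatocyte markers were abundant in every liver, with Alb, the gene for albumin, between 12020 and 38220 TPM (a level per transcript length, scaled to a common total). Of 6 such markers, 2 were called lower in KO livers, Ttr at -0.81 (SE 0.156, adjusted p = 0.00422) and Serpina1c at -1.19 (SE 0.166, adjusted p = 7.27e-04, edgeR with Benjamini-Hochberg adjustment). The other 4 were not called. Of the 6, 3 had positive values, and the median log2 fold change was -0.01. Alb itself was at 18770 ± 4547 TPM in Het and 27280 ± 6387 TPM in KO livers (SD, n = 6 each). Among the marker genes of other liver cells, 5 of 10 Kupffer cell and macrophage markers were called higher in KO livers, while 2 of 5 endothelial, 1 of 6 stellate cell and fibroblast and 1 of 5 tested erythroid markers were called lower, against 12.2% of all tested genes called higher and 10.2% called lower. In whole liver, a gene's level can fall because fewer cells of a type are present or because each cell holds less RNA, and these cannot be told apart.

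NRF2 is a transcription factor that is controlled mainly through its protein. KEAP1, an adaptor of a CUL3 ubiquitin ligase, binds NRF2 and sends it for degradation, and oxidants or electrophiles that modify KEAP1 let NRF2 build up. NRF2 then pairs with a small MAF protein and binds the antioxidant response element (ARE) near its target genes, which make glutathione, reduce thioredoxin and quinones, break down haem and supply NADPH. In the liver these enzymes protect hepatocytes from reactive metabolites, and BACH1 competes for the same elements and represses Hmox1 in particular.

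The promoter windows below are shown for 4 genes that were called and 1 that was not, so that the letters of the ARE core can be seen where they are present. The core was searched as TGACNNNGC and as TGAGNNNGC on both strands, and matches are in capitals. Each window is RefSeq sequence of GRCm38.p6, an earlier build than that of the counts, and spans 250 bases before to 50 bases after the start site, printed 5′ to 3′ along the gene. Srxn1, Slc7a11, G6pdx and Nqo1 were called higher in KO livers, and Gclm was not called.

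Srxn1, chr2:152105274-152105573, plus strand: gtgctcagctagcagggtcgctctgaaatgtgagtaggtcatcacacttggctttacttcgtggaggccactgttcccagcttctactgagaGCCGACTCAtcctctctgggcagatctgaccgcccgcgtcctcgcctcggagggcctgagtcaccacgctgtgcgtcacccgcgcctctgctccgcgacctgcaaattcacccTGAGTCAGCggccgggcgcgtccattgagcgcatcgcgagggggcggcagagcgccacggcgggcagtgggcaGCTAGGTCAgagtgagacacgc

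Slc7a11, chr3:50443564-50443863, minus strand: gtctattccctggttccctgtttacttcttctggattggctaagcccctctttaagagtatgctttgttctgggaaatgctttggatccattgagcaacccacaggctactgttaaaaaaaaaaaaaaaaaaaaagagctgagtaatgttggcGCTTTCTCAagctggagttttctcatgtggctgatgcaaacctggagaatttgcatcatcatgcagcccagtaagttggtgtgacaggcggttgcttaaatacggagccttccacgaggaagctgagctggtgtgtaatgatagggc

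G6pdx, chrX:74428831-74429130, minus strand: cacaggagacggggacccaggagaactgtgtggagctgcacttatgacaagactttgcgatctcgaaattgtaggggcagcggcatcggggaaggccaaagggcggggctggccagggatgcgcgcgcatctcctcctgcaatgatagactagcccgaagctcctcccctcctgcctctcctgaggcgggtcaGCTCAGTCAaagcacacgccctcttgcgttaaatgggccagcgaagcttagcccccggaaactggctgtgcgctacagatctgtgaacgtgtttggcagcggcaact

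Nqo1, chr8:107403156-107403455, minus strand: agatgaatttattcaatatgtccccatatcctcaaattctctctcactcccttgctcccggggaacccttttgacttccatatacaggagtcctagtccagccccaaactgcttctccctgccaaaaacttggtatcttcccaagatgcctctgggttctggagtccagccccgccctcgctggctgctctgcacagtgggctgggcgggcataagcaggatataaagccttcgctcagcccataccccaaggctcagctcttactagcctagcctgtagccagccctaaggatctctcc

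Gclm, chr3:122245307-122245606, plus strand: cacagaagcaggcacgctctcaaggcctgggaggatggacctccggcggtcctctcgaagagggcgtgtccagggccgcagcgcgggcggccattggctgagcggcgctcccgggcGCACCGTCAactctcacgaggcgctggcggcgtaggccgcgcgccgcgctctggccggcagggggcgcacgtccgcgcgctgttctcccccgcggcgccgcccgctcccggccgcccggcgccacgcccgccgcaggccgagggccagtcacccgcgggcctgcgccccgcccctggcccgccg

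RefSeq windows were held for 8 of the 10 genes, with 10 windows in all because Txnrd1 had 3; Gclc and Hmox1 had none in the table. A core was found in a window of 7 of the 8 genes, the exception being Nqo1, for which this says only that the letters are not in this stretch. Of all 32851 promoter windows of the same length, 27.8% held one form or the other, 12.4% the TGACNNNGC form and 17.6% the TGAGNNNGC form. Srxn1 held 3 matches, with first bases at -158, -45 and 28 from the start site. The match at -45 overlaps TGACTCA on the opposite strand, the motif of AP-1, which 5.2% of all windows held. Srxn1 held another TGACTCA at -102. Osgin1, which was not called, had the same kind of overlap, with its match at -99 and TGACTCA at -97. Slc7a11 had its match at -97, G6pdx at -57 and Gclm at -134, while Txnrd1 had one at -92 in 1 of its 3 windows, Osgin1 at -99 and Nfe2l2 at -240. Windows of genes that were not called thus held the core as well as windows of genes that were, and the GC content of the 10 windows ran from 44.7% to 79.7%. A match is a description of the letters and not evidence of binding.

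Comparing KO with Het livers over both sexes asks whether the programme differed in the livers of sick, treated mice from those of their healthy treated littermates. Of the 10 genes, 5 were called higher in KO livers and none lower, a call being a Benjamini-Hochberg adjusted p under 0.05 from edgeR's quasi-likelihood F test over all tested genes. Without Slc7a11, which was tested only through its level in KO livers, 4 of the other 9 were called. The background was 22.4% of tested genes called, with 12.2% higher and 10.2% lower. The genes called were Nqo1, Hmox1, Srxn1, Slc7a11 and G6pdx, while Nfe2l2, Gclc, Gclm, Txnrd1 and Osgin1 were not. The median log2 fold change of the 10 was 0.41, and that of the 9 without Slc7a11 was 0.05, against 0.02 over all tested genes. Apart from Slc7a11, the genes called higher were thus Nqo1, Hmox1, Srxn1 and G6pdx, each a single gene of its function. Both subunits of the enzyme that starts glutathione synthesis, Gclc and Gclm, had negative values that did not pass.

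**Figure D1:**
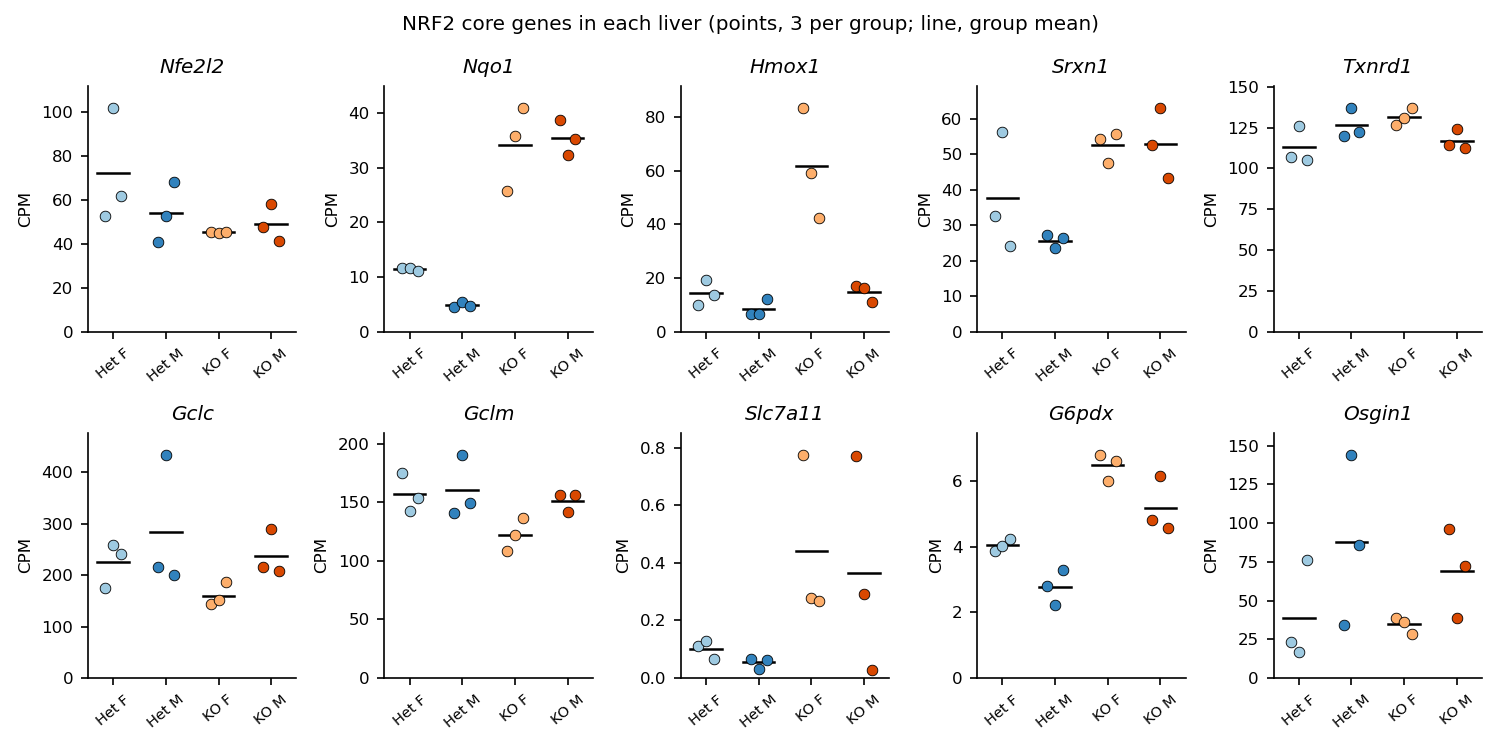
Level of each of the 10 genes in each of the 12 livers, in CPM (y axis from 0) by group (x axis; Het or KO, F female, M male). Points are livers, 3 per group, and lines are group means. The 6 KO livers lie above all 6 Het livers for Nqo1 and G6pdx, and Hmox1 is highest in the 3 KO females.

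**Figure D2:**
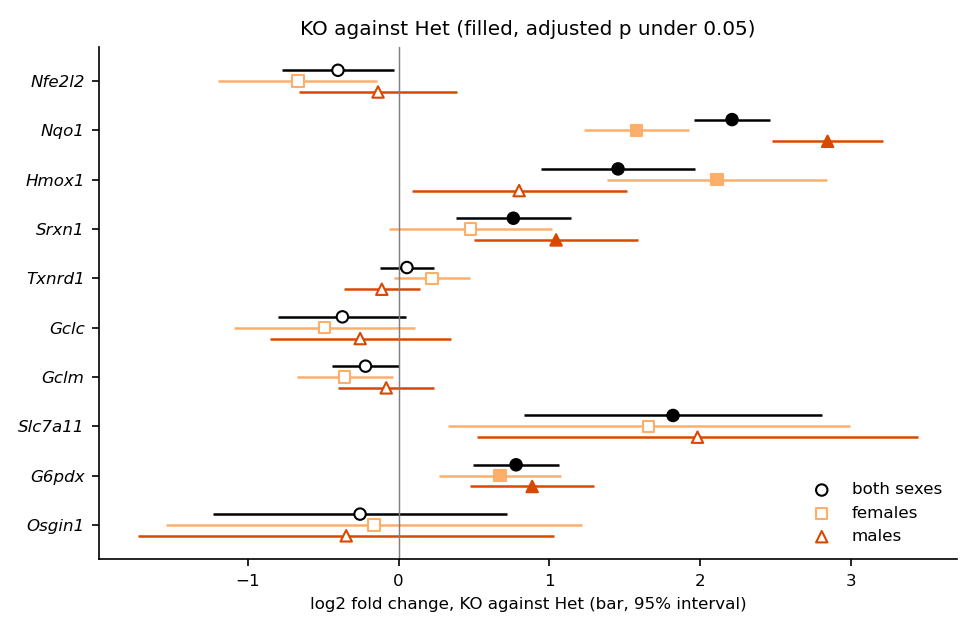
Log2 fold change of KO against Het for each gene (x axis) over both sexes, in females and in males, with bars for the 95% interval. Filled symbols mark an adjusted p under 0.05. Nqo1 lies at 2.21 over both sexes, whereas Gclc, Gclm and Nfe2l2 lie at -0.37, -0.22 and -0.40 and are open.

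The factor came first. Nfe2l2 (ENSMUSG00000015839.7, chromosome 2 from 75504739 to 75534985 on the minus strand in GRCm39) was at 52.5, 102 and 62.0 CPM in Het females and at 45.4, 45.02 and 45.5 CPM in KO females. It was at 40.6, 52.6 and 68.3 CPM in Het males and 47.9, 58.0 and 41.1 CPM in KO males. By CPM the 3 KO females lay close together and below every Het female, while the males overlapped. By TPM the females overlapped too, with Het livers from 19.2 and KO livers up to 19.5. Over both sexes the log2 fold change was -0.40 (SE 0.171, 95% interval -0.78 to -0.03) and the adjusted p of 0.111 missed the threshold, as did that in females (-0.67, SE 0.242, adjusted p = 0.0925, edgeR with Benjamini-Hochberg adjustment). With 1 liver left out the female value ran from -0.87 to -0.35. Gm56200 overlaps Nfe2l2 on the same strand. The estimated counts of Nfe2l2 were not whole in some livers, so its reads could be shared.

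Nqo1 (ENSMUSG00000003849.9, chromosome 8 from 108113835 to 108129934, minus strand), which encodes the NAD(P)H quinone reductase that is the textbook readout of NRF2, had the strongest call of the 10. It was at 11.6, 11.6 and 11.02 CPM in Het females and 25.7, 35.9 and 40.9 CPM in KO females. In males it was at 4.57, 5.37 and 4.70 CPM in Het livers and 38.7, 32.4 and 35.3 CPM in KO livers. The 6 KO livers lay above all 6 Het livers, which was true of 4.72% of all tested genes. The genotypes differed by a log2 fold change of 2.21 (SE 0.117, 95% interval 1.96 to 2.47), a 4.63-fold difference, with an adjusted p of 7.10e-07 (edgeR with Benjamini-Hochberg adjustment). Het females and Het males did not overlap, with means of 11.4 ± 0.333 and 4.88 ± 0.427 CPM (SD, n = 3 each), whereas KO females and KO males did, at 34.1 ± 7.73 and 35.4 ± 3.18 CPM.

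Hmox1 (ENSMUSG00000005413.9, chromosome 8 from 75820241 to 75827217, plus strand) encodes haem oxygenase 1, which opens the haem ring and releases iron. It was at 9.95, 19.1 and 13.6 CPM in Het females and 83.2, 59.3 and 42.5 CPM in KO females. In males it was at 6.64, 6.54 and 12.0 CPM in Het livers and 16.9, 16.2 and 10.9 CPM in KO livers. Every KO female lay above every other liver, while the male genotypes overlapped. The log2 fold change over both sexes was 1.46 (SE 0.232, adjusted p = 0.00180), that in females 2.11 (SE 0.333, adjusted p = 0.00527) and that in males 0.80 (SE 0.325, adjusted p = 0.161, all by edgeR with Benjamini-Hochberg adjustment).

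Hmox1 is also a gene of the macrophages that clear red cells, so the 10 Kupffer cell and macrophage markers are given beside it. Their summed level was 122.1 to 157 TPM in Het and 160 to 249 TPM in KO females, and 48.7 to 66.5 TPM in Het and 76.7 to 216 TPM in KO males, and none of the 10 was at 0 in any whole group. Of the 10, 5 were called higher in KO livers over both sexes (Marco, Spic, Vsig4, Cd68 and Cd5l), 1 in females (Spic) and 2 in males (Marco and Vsig4). Marco, a scavenger receptor, had a log2 fold change of 2.98 (SE 0.571, adjusted p = 0.00617), and Spic, a factor of haem-handling macrophages, one of 1.34 (SE 0.216, adjusted p = 0.00162, edgeR with Benjamini-Hochberg adjustment). Vsig4 and Cd5l were at 0.87 (adjusted p = 0.0103) and 0.79 (adjusted p = 0.0379) in the same test. Clec4f and Timd4, which were not called, were at 0.57 (adjusted p = 0.118) and -0.05 (adjusted p = 0.936, edgeR). Divided by the marker sum, Hmox1 TPM was 0.0448, 0.0697 and 0.0482 in Het females and 0.301, 0.160 and 0.0902 in KO females. The quotient was 0.0474, 0.0626 and 0.0933 in Het males and 0.0669, 0.0368 and 0.0723 in KO males. By this quotient the KO females lay above the Het females and the males overlapped. The lowest KO female, KO_F_123 at 0.0902, lay below Het_M_137 at 0.0933. The divisor holds the 5 markers called higher in KO livers, so it does not measure the number of macrophages. The part of macrophages in the Hmox1 difference was not tested.

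**Figure D3:**
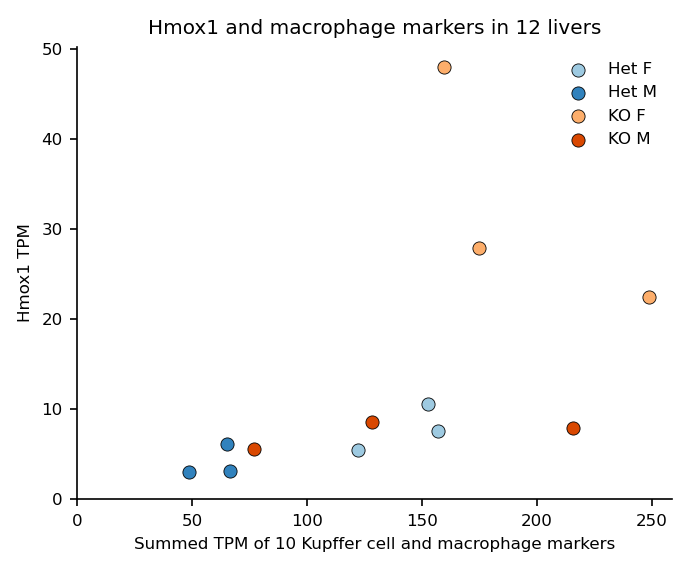
Hmox1 level (y axis, TPM) against the summed level of 10 Kupffer cell and macrophage markers (x axis, TPM) in the 12 livers, coloured by group. KO females hold 22.4 to 48.0 TPM of Hmox1 at marker sums of 160 to 249. KO males hold 5.55 to 8.59 TPM at sums of 76.7 to 216.

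The thioredoxin arm divided. Srxn1 (ENSMUSG00000032802.9, chromosome 2 from 151947436 to 151957687, plus strand) encodes sulfiredoxin, which restores peroxiredoxins that have been oxidised beyond the reach of thioredoxin. It was at 32.7, 56.2 and 24.2 CPM in Het females and 54.2, 47.6 and 55.8 CPM in KO females. In males it was at 27.1, 23.5 and 26.5 CPM in Het livers and 52.7, 62.9 and 43.4 CPM in KO livers. Only Het_F_115 among the Het livers reached the KO range, and the males did not overlap. KO livers differed from Het livers by 0.76 on the log2 scale over both sexes (SE 0.176, adjusted p = 0.0105) and 1.04 in males (SE 0.250, adjusted p = 0.0279, edgeR with Benjamini-Hochberg adjustment). In females it was 0.48 (SE 0.248, adjusted p = 0.224), and without Het_F_115 it was 0.87 with an adjusted p of 0.0229 by the same test. The call in males was lost without any 1 of Het_M_119, Het_M_125, Het_M_137, KO_M_118 or KO_M_122, with log2 fold changes of 0.90 to 1.08 and adjusted p between 0.0746 and 0.110 (edgeR). It was also lost in length-scaled counts, scaled counts and limma on log2(TPM + 1), at adjusted p of 0.0527, 0.0620 and 0.0518.

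Txnrd1 (ENSMUSG00000020250.12, chromosome 10 from 82669785 to 82733546, plus strand), the cytosolic thioredoxin reductase, varied little. Het females were at 107, 126.3 and 105 CPM and KO females at 127, 131 and 136.9 CPM. Het males were at 120, 136.8 and 122.4 CPM and KO males at 114, 124 and 112.5 CPM. The genotypes differed by 0.05 on the log2 scale (SE 0.0815, 95% interval -0.12 to 0.23, adjusted p = 0.669, edgeR with Benjamini-Hochberg adjustment). Eid3 lies within Txnrd1 on the same strand, so reads of the pair could be split by the counting.

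Glutathione is made from glutamate and cysteine by glutamate-cysteine ligase, with Gclc as its catalytic and Gclm as its modifier subunit. Gclc (ENSMUSG00000032350.10, chromosome 9 from 77661797 to 77701770, plus strand) was at 175, 259 and 241 CPM in Het females and 143, 151 and 186 CPM in KO females. Het males were at 216, 434 and 201 CPM and KO males at 215, 290 and 208 CPM. Het_M_125 stood far above the other Het males, and the genotypes overlapped in both sexes. The log2 fold change was -0.37 (SE 0.195, 95% interval -0.80 to 0.05, adjusted p = 0.190, edgeR with Benjamini-Hochberg adjustment). In males it was -0.26 (adjusted p = 0.622), and without Het_M_125 it was 0.18 with an adjusted p of 0.697 by the same test.

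Gclm (ENSMUSG00000028124.17, chromosome 3 from 122039126 to 122065061, plus strand) was at 175, 142 and 153 CPM in Het females and 109, 121.9 and 136.4 CPM in KO females. It was at 141, 190 and 149 CPM in Het males and 156, 142 and 156 CPM in KO males. By CPM, KO females lay below Het females without overlap, and the males overlapped. By TPM the females overlapped too, with Het livers from 78.0 and KO livers up to 89.9. On the log2 scale the change was -0.22 over both sexes (SE 0.103, adjusted p = 0.146) and -0.36 in females (SE 0.146, adjusted p = 0.128, edgeR with Benjamini-Hochberg adjustment). Gm6061 overlaps Gclm on the same strand, and the estimated counts of Gclm were not whole in any liver, so its reads could be shared. Per transcript length, Gclc stood below Gclm in every liver. The ratio of their TPM was 0.621 ± 0.227 in Het and 0.456 ± 0.0561 in KO females, and 0.651 ± 0.145 in Het and 0.588 ± 0.0677 in KO males (SD, n = 3 each), with ranges that overlapped between the genotypes.

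Slc7a11 (ENSMUSG00000027737.11, chromosome 3 from 49846975 to 50398070, minus strand) encodes the exchanger that imports cystine for glutathione synthesis, and liver holds little of it. Het females had 4, 5 and 3 reads and Het males 2, 1 and 2 reads. KO females had 25, 9 and 10 reads and KO males 34, 10 and 1. Thus 5 of the 6 KO livers lay above all Het livers, while KO_M_136 had a single read. Pooled over livers and scaled to depth, KO livers held 5.19 times the reads of Het livers (exact 95% interval 3.07 to 9.30, counting error only). The log2 fold change was 1.82 (SE 0.459, adjusted p = 0.0140, edgeR with Benjamini-Hochberg adjustment), and without KO_M_118 it was 1.30 with an adjusted p of 0.0513. In limma on log2(TPM + 0.1), where a pseudocount outweighs such levels, it was 0.30 with an adjusted p of 0.183. Neither sex alone was called, at adjusted p of 0.0964 in females and 0.0961 in males (edgeR), and without KO_M_136 both were, at 0.0444 and 0.0267. The gene spans 551096 bases and overlaps 3 other annotated genes on its strand, so part of these few reads may not be its own.

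G6pdx (ENSMUSG00000031400.11, chromosome X from 73449857 to 73472819, minus strand) encodes glucose-6-phosphate dehydrogenase, the entry enzyme of the pentose phosphate pathway and a source of NADPH. It was at 3.86, 4.005 and 4.23 CPM in Het females and 6.79, 6.01 and 6.60 CPM in KO females. In males it was at 2.80, 2.21 and 3.29 CPM in Het livers and 4.80, 6.15 and 4.56 CPM in KO livers. As with Nqo1, all 6 KO livers lay above all 6 Het livers by CPM. By TPM, Nqo1 stayed apart, with Het livers up to 6.43 and KO livers from 14.8. G6pdx overlapped by TPM, with Het livers up to 1.70 and KO livers from 1.48. The log2 fold change was 0.78 (SE 0.132, 95% interval 0.49 to 1.07), a 1.72-fold difference with an adjusted p of 0.00216 (edgeR with Benjamini-Hochberg adjustment). It was 0.67 in females (adjusted p = 0.0392) and 0.89 in males (adjusted p = 0.0170). The female call was lost in 8 of the 12 fits that left out 1 liver (any 1 of the 3 Het females, the 3 KO females, Het_M_119 or KO_M_118), at log2 fold changes of 0.62 to 0.72 and adjusted p of 0.0549 to 0.114. The male call was lost without Het_M_119, Het_M_125 or KO_M_122, at 0.74 to 0.89 and adjusted p of 0.0522 to 0.0743 (edgeR). Of 13 other settings, 6 also lost the female call, at adjusted p of 0.0506 to 0.123, and limma on log2(TPM + 1) lost the male one, at 0.0685.

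Osgin1 (ENSMUSG00000074063.11, chromosome 8 from 120152470 to 120173000, plus strand), an oxidative stress-induced growth inhibitor, was widely scattered within groups. It was at 23.0, 17.0 and 76.2 CPM in Het females and 38.9, 36.4 and 28.5 CPM in KO females. In males it was at 34.3, 144 and 85.7 CPM in Het livers and 96.0, 39.0 and 72.4 CPM in KO livers. The groups overlapped throughout, and the log2 fold change of -0.26 (SE 0.438, 95% interval -1.23 to 0.72, adjusted p = 0.715, edgeR with Benjamini-Hochberg adjustment) had a wide interval that held values of either sign. Without Het_F_126 it was 0.21 and without Het_M_125 0.01.

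Taken by sex, 3 of the 10 genes were called in females (Nqo1, Hmox1 and G6pdx), against a background of 11% of tested genes called, 5.94% higher and 5.1% lower. In males 3 were called (Nqo1, Srxn1 and G6pdx), against 7.45% of tested genes called, 4.47% higher and 2.98% lower. Both sexes had no member called lower. By CPM, the female genotypes did not overlap for 7 of the 10 genes. KO was higher for Nqo1, Hmox1, Slc7a11, G6pdx and Txnrd1 and lower for Nfe2l2 and Gclm. The background was 30.4% of all tested genes without overlap, 15.8% with KO higher and 14.7% with KO lower. Slc7a11 is among the 7 although it was tested only through its level in KO livers. In males 3 genes did not overlap by CPM (Nqo1, Srxn1 and G6pdx), all with KO higher, against 16.8% of all tested genes. By TPM, Txnrd1, Nfe2l2 and Gclm overlapped between the female genotypes.

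Whether the KO difference itself differed between males and females was tested as an interaction. None of the 10 genes was called by edgeR with Benjamini-Hochberg adjustment, where 0.0465% of all tested genes were. At an unadjusted p under 0.05 there were 2, Nqo1 and Hmox1, against 9.28% of all tested genes. Nqo1 had the larger KO difference in males, 2.85 (SE 0.170) against 1.58 (SE 0.161) in females, and the difference between these of 1.27 (SE 0.224) had an adjusted p of 0.0810. DESeq2 and limma called it, with 1 of the 10 genes past the threshold in each, and so did edgeR without KO_F_123, at 1.42 with an adjusted p of 0.0255. Hmox1 went the other way, with a difference of -1.31 (SE 0.458, unadjusted p = 0.0150, adjusted p = 0.461). For the other 8 genes the adjusted p lay between 0.563 and 0.963.

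Averaged over the genotypes, 2 of the 10 genes differed by sex, both lower in males, against 1.02% of tested genes called and 0.506% called lower. In males Hmox1 stood at -1.41 relative to females on the log2 scale (SE 0.232, adjusted p = 0.0143) and Nqo1 at -0.58 (SE 0.112, adjusted p = 0.0321, edgeR with Benjamini-Hochberg adjustment). For Hmox1 the sexes overlapped in Het livers, at 9.95 to 19.1 CPM in females and 6.54 to 12.0 CPM in males. They were apart in KO livers, at 42.5 to 83.2 CPM in females and 10.9 to 16.9 CPM in males. For Nqo1 the sexes were apart in Het livers and overlapped in KO livers, and its call was lost without any 1 of Het_F_111, Het_F_115, Het_M_119, Het_M_137, KO_F_112, KO_M_118, KO_M_122 or KO_M_136, at -0.63 to -0.55 and adjusted p of 0.0528 to 0.0823. All 10 macrophage markers had negative values in males against females, with a median of -0.74, and none was called.

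Per transcript length the 10 genes differed widely in level. In Het livers the order by mean TPM was Gclm (93.9), Gclc (59.4), Txnrd1 (31.5), Osgin1 (24.6), Nfe2l2 (21.3), Srxn1 (9.15), Hmox1 (5.99), Nqo1 (4.29), G6pdx (1.19) and Slc7a11 (0.0112). Neighbours overlapped in their range over 6 livers except Gclc and Txnrd1, Nqo1 and G6pdx, and G6pdx and Slc7a11. In KO livers the genes for glutathione synthesis still led, with Gclm at 87.9 ± 5.47 TPM and Gclc at 46.1 ± 10.1 TPM (SD, n = 6), followed by Txnrd1 (33.2) and Osgin1 (20.5). Hmox1 (20.1), Nqo1 (17.8), Nfe2l2 (17.2) and Srxn1 (14.6) then formed a group whose neighbours overlapped. Hmox1 and Nqo1, which stood below Srxn1 in Het livers, stood above it in KO livers by their means.

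**Figure D4:**
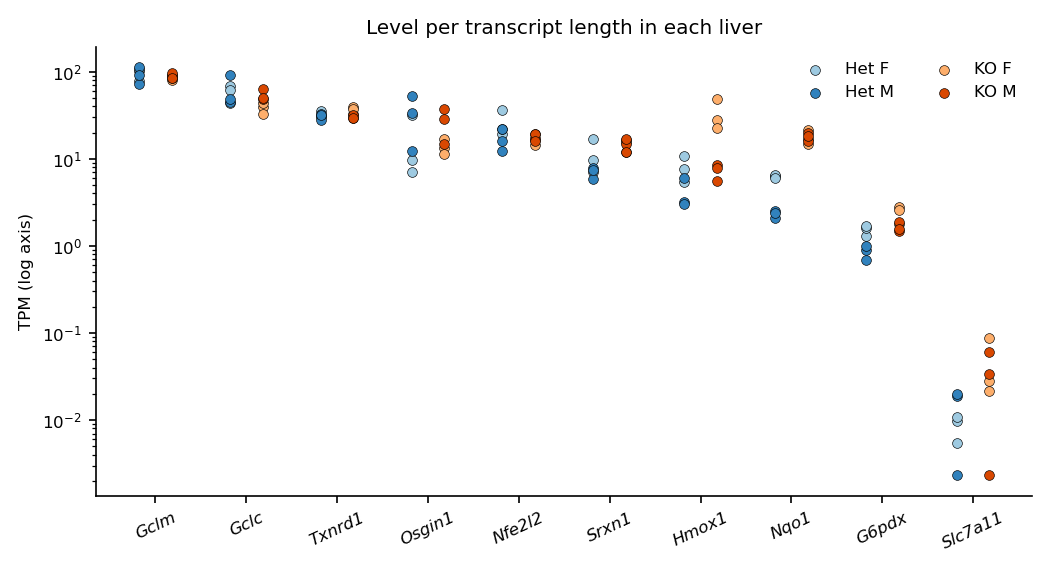
Level of each gene per transcript length in each of the 12 livers (y axis, TPM, log axis), with genes ordered by their mean in Het livers (x axis). For each gene the Het livers stand left and the KO livers right. Gclm and Gclc lead in both genotypes and Slc7a11 is below 0.1 TPM in every liver.

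The other genes of the pathway were examined by lists. Each list count below stands beside 12.2% of all tested genes called higher in KO livers and 10.2% called lower. Of 14 regulators and partners of NRF2, 1 was called higher and 1 lower in KO livers, with a median log2 fold change of -0.02. Mafk, a small MAF protein that pairs with NRF2 or BACH1, was higher by 1.27 on the log2 scale (SE 0.186, adjusted p = 9.59e-04), from 12.3 ± 2.83 to 29.99 ± 9.31 CPM (SD, n = 6 each). Nfe2l1, a sister factor that drives proteasome genes, was lower, at -0.40 (SE 0.0952, adjusted p = 0.0114, edgeR with Benjamini-Hochberg adjustment). Keap1 was at 0.18 (SE 0.128, adjusted p = 0.347), Bach1 at -0.01 (SE 0.234, adjusted p = 0.976) and Btrc, which marks NRF2 for degradation independently of KEAP1, at -0.25 (SE 0.104, adjusted p = 0.106). Mafg was at 0.06 (SE 0.121, adjusted p = 0.739), with a sign that turned on other count tables.

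Of 12 other genes of glutathione synthesis and recycling, 5 were called higher and 2 lower, with a median of 0.37, and without Gpx2 4 of 11 were higher, with a median of 0.31. Gss, glutathione synthetase, rose from 51.7 ± 5.85 to 69.6 ± 4.84 CPM (log2 fold change 0.43, SE 0.0902, adjusted p = 0.00680), without overlap. Gpx2, a glutathione peroxidase better known from the gut, had 0 to 4 reads in Het livers and 14 to 28 reads in KO livers, and it passed the filter only through the KO livers. Oplah, which recycles oxoproline to glutamate, was lower at -0.54 (SE 0.130, adjusted p = 0.0127, edgeR with Benjamini-Hochberg adjustment). Gss acts on the product of glutamate-cysteine ligase, whose subunits Gclc and Gclm were not called.

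Of 13 thioredoxin and peroxiredoxin genes, 1 was called higher and 5 lower, with a median of -0.24. Txn1, thioredoxin itself, fell from 94.97 ± 6.68 to 65.0 ± 11.5 CPM (log2 fold change -0.55, SE 0.114, adjusted p = 0.00626), without overlap, and Txnrd3 was at -0.44 (SE 0.119, adjusted p = 0.0212, edgeR with Benjamini-Hochberg adjustment), which was lost without Het_M_125 at -0.41 with an adjusted p of 0.0504. Sesn1, a sestrin and a p53 target, was the gene that rose, by 1.22 (SE 0.160, adjusted p = 5.11e-04). Srxn1 and Txn1, both of the thioredoxin arm, thus moved in opposite directions.

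Of 9 tested genes of NADPH supply other than G6pdx, none was called higher and 3 were called lower, with a median of -0.22. Me1, malic enzyme, fell from 110.7 ± 23.3 to 34.9 ± 9.26 CPM (log2 fold change -1.67, SE 0.187, adjusted p = 2.19e-04). It is known both as an NRF2 target and as a gene of fat synthesis. Idh1 was at -0.86 (SE 0.251, adjusted p = 0.0308) and Rpe at -0.65 (SE 0.130, adjusted p = 0.00517, edgeR with Benjamini-Hochberg adjustment). The Idh1 call was lost without any 1 of Het_F_115, Het_M_119, Het_M_125, KO_M_118 or KO_M_136, at adjusted p of 0.0510 to 0.0634. G6pdx, described above, was thus higher while these 3 genes were lower.

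Of 7 genes of haem breakdown and iron storage other than Hmox1, 1 was called higher and none lower, with a median of -0.01. Hmox2, the constitutive haem oxygenase, rose from 28.1 ± 3.44 to 37.4 ± 3.16 CPM (log2 fold change 0.41, SE 0.0884, adjusted p = 0.00707, edgeR with Benjamini-Hochberg adjustment). Blvrb was at -0.36 (SE 0.147, adjusted p = 0.0982) and Fth1, the ferritin heavy chain, at 0.25 (SE 0.0926, adjusted p = 0.0748). Leaving out Het_F_115 or KO_F_123 brought Blvrb past the threshold, at adjusted p of 0.0480 and 0.0445. Fth1 passed in 5 of 13 other settings (length-scaled counts, scaled counts, DESeq2 and limma with either pseudocount), at adjusted p of 0.0228 to 0.0302.

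Of 23 tested genes of conjugation, reduction and export with links to NRF2, 9 were called higher and 5 lower, with a median of 0.10. Gsta1, a glutathione transferase, was at 2.98 ± 2.30 CPM in Het and 18.4 ± 6.72 CPM in KO livers (log2 fold change 3.03, SE 0.254, adjusted p = 3.22e-05). Near-identical copies such as Gsta2 make that value uncertain. Cbr1, a carbonyl reductase, was higher by 0.99 (SE 0.130, adjusted p = 5.09e-04), and Abcc4, an export pump, by 1.40 (SE 0.168, adjusted p = 3.15e-04, edgeR with Benjamini-Hochberg adjustment). Gstp1 was lower by this average, at -1.07 (SE 0.199, adjusted p = 0.00367), but the sexes differed, with Het males at 1207 ± 281 CPM and the other 3 groups at means of 164 to 226 CPM. Its near-identical copy Gstp2 may share those reads.

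Of 4 superoxide and hydrogen peroxide enzymes, which are not core NRF2 targets, none was called higher and 3 were called lower, with a median of -0.45. Cat, catalase, fell from 2371 ± 490 to 1150 ± 398 CPM (log2 fold change -1.06, SE 0.206, adjusted p = 0.00447). Sod2 was at -0.49 (SE 0.108, adjusted p = 0.00795) and Sod1 at -0.32 (SE 0.1002, adjusted p = 0.0406, edgeR with Benjamini-Hochberg adjustment). The Sod1 call was lost in 9 of the 12 fits that left out 1 liver, those without Het_F_111, Het_M_137 or KO_F_112 being the exceptions, at adjusted p of 0.0523 to 0.0817.

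Slc7a11 is also a target of ATF4, the factor of the amino acid response, so 10 other genes of that response, Atf4 itself included, are given beside it. Of these, 4 were called higher and none lower, with a median of 0.53, and Atf4 was 1 of the 4. Asns, asparagine synthetase, was at 4.61 ± 5.05 CPM in Het and 24.4 ± 13.8 CPM in KO livers (log2 fold change 3.08, SE 0.513, adjusted p = 0.00314). Trib3, a pseudokinase of the same response, was higher by 1.27 (SE 0.284, adjusted p = 0.0100), and Psat1, of serine synthesis, by 1.08 (SE 0.245, adjusted p = 0.00931, edgeR with Benjamini-Hochberg adjustment), on 2 to 22 reads per liver. The part of this response in the Slc7a11 difference was not tested.

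**Figure D5:**
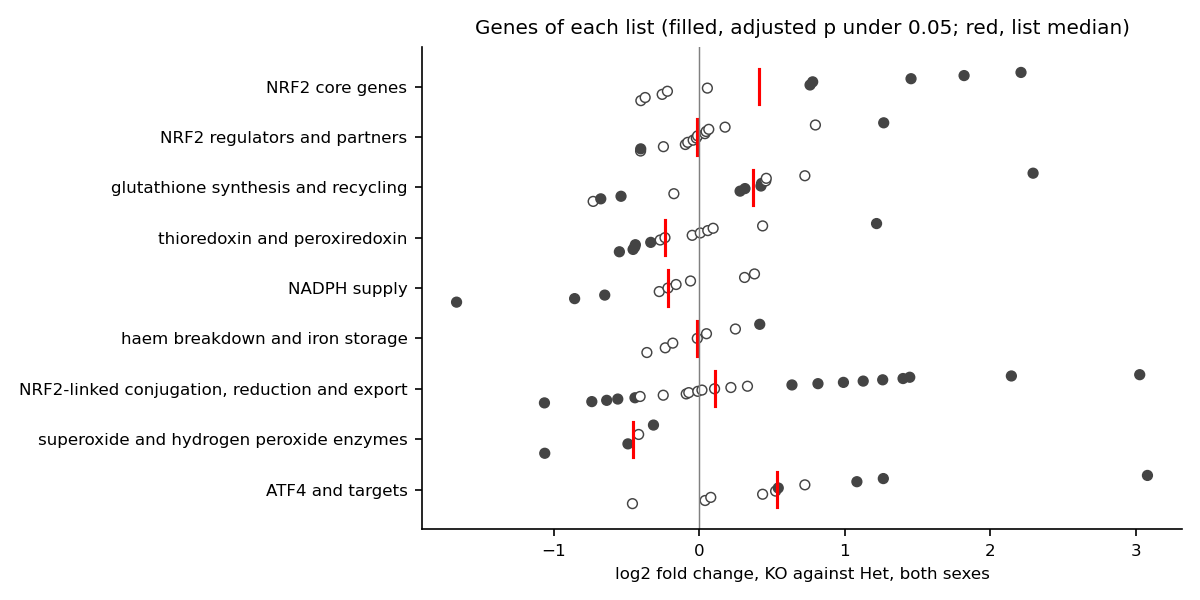
Log2 fold change of KO against Het over both sexes (x axis) for every tested gene of each list (rows). Each point is a gene, filled where the adjusted p is under 0.05, and red lines are list medians. The NRF2 core genes reach from -0.40 to 2.21 with a median of 0.41, or 0.05 without Slc7a11. The superoxide and hydrogen peroxide enzymes all lie below 0.

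For the 3 members whose level varied most over the 12 livers, the genes with the most similar pattern were sought by the root mean square (RMS) difference of log2 CPM after centring each gene on its mean. For Nqo1 they were Cyp4f16, a cytochrome P450 (RMS 0.32), Gm5148 (0.35) and Aph1b, a subunit of γ-secretase (0.39). For Hmox1 they were Elovl7, a fatty acid elongase (0.33), Gpx3, a secreted glutathione peroxidase (0.38), and Abcc4 (0.44). For Slc7a11 they were Syt14 (0.40), Pnpla2, the adipose triglyceride lipase (0.43), and Sptbn5 (0.46). Slc7a11 had 1 to 34 reads per liver, and Syt14 and Sptbn5 averaged 0.244 and 0.210 CPM. The patterns of Slc7a11, Syt14 and Sptbn5 therefore rest on few reads and carry much counting error. The members themselves had SDs of log2 CPM of 1.24, 1.18 and 0.969, and the likeness is a description over 12 livers that share genotype and sex.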

How the data were processed

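RNA was isolated from livers of 12 mice with TRIzol, and libraries were made with a stranded total RNA kit with removal of ribosomal RNA. The authors aligned reads to GRCm39 with STAR 2.7.9a and estimated counts per gene with Salmon 1.10.1. The deposited tables held estimated counts, 2 scaled versions of them and TPM, and 12% of the estimated counts were not whole. Groups came from the labels, with 3 mice per genotype and sex.

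Estimated counts were rounded, and genes were tested if 3 or more livers held 5 or more reads after scaling to the median library (19350 of 57180). edgeR 4.0.16 quasi-likelihood tests (prior count 2, robust estimation, TMM scaling) fitted the 4 group means over all 12 livers. Contrasts were KO against Het over both sexes and within each, their interaction, and sex. P-values were adjusted by Benjamini-Hochberg over all tested genes, with a threshold of 0.05. CPM values are scaled by TMM factors. Alternatives were other count tables, filters and scalings, DESeq2 1.42.0, limma 3.58.1 on log2(TPM + 1) and log2(TPM + 0.1), and leaving out each mouse. Totals of 30044812 to 43634073 counts per liver set the precision of low genes, and counting intervals cover counting error only. No pair of libraries agreed within sampling noise.

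All members, Keap1, Bach1, Mafg, the 3 genes of smallest p in each list, list genes called for the interaction, and the 3 nearest patterns of the 3 most variable members were named. Ttr, Serpina1c, macrophage markers beside Hmox1 and the copies of Gsta1 and Gstp1 were named after their values were seen. Members and lists were chosen with earlier results of these data known. Gene positions come from GENCODE M39 on GRCm39, and promoter windows from RefSeq on GRCm38.p6.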

Additional observations from a re-analysis of the deposited data

Results flagged for a closer look

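Among 20 sets of 6 livers (10 genes in each genotype), 2 held a liver far from the other 5 by Dixon's gap, where chance alone gives about 1. Gclc was at 433.5 CPM in Het_M_125, with the next Het liver at 258.6 CPM and the lowest at 174.7 CPM. Srxn1 was at 56.2 CPM in Het_F_115, with the next Het liver at 32.7 CPM and the lowest at 23.5 CPM.

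Gstp1, a glutathione transferase among the genes of conjugation, was the one gene of the pathway lists whose KO effect differed between the sexes by the interaction test. The effect in males minus that in females was -2.70 on the log2 scale (SE 0.401, adjusted p = 0.0451, edgeR with Benjamini-Hochberg adjustment). KO livers were at 226 ± 43.1 CPM in males and 199 ± 65.2 CPM in females, against 1207 ± 281 and 164 ± 43.3 CPM in Het livers (SD, n = 3 each). The call was lost in 8 of the 12 fits that left out 1 liver, those without Het_F_126, Het_M_125, KO_F_108 or KO_F_123 being the exceptions, at -2.80 to -2.53 and adjusted p of 0.0896 to 0.141.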

How the results depend on the processing

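Nqo1, Hmox1, Srxn1 and G6pdx stayed called over both sexes under every alternative and with any 1 liver left out, as did Nqo1 in each sex and Hmox1 in females. The count of members called over both sexes was 4 to 5 in all of these, and in females 2 to 4. In males the count of 3 became 1, Nqo1, in limma on log2(TPM + 1), and ran from 1 to 4 with 1 liver left out. For the interaction the count of 0 became 1, Nqo1, in DESeq2 and in limma with either pseudocount, and ran from 0 to 1 with 1 liver left out. For sex, the count of 2 ran from 1 to 2 with 1 liver left out and was 3 in DESeq2, which also called G6pdx (-0.44, adjusted p = 0.0358). Slc7a11 had too few reads to be tested in the scaled counts and when 10 reads were required in every liver.

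Signs turned only for values that were not called. With limma on log2(TPM + 1) and log2(TPM + 0.1), Osgin1 in females was 0.053 and 0.074, Nfe2l2 in males 0.093 and 0.10, and Mafg over both sexes -0.031 and -0.033, beside -0.047 in length-scaled and -0.037 in scaled counts. With 1 liver left out, over both sexes Bach1 ran from -0.15 to 0.13, Mafg from -0.037 to 0.13 and Osgin1 from -0.46 to 0.21. In males Gclc ran from -0.47 to 0.18, Gclm from -0.18 to 0.057, Nfe2l2 from -0.31 to 0.058 and Osgin1 from -0.74 to 0.20, and in females Osgin1 ran from -0.53 to 0.77. The cause was not tested.

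Among other named genes called over both sexes, Rpe lost its call in 3 of 13 settings, Txnrd3 in 2 and Idh1 in 1, and the Gstp1 interaction call was lost in 4. The count of all genes called for the interaction was 9, but 162 in DESeq2. Each mouse has its own number and the labels used here gave no litter, so Het and KO littermates were not paired. With 3 mice a group, sex-specific calls rest on few animals, and Slc7a11, Gpx2 and Psat1 on few reads.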
